A study of Mus musculus with 6 samples.

Results

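The genes of respiratory complex I were examined in mouse oocytes with and without LSM14B, an RNA-binding protein made in oocytes. They were taken by symbol: Nduf followed by a, ab, af, b, c, s or v and a number. This rule found 45 of the 24255 genes in the deposited table, and it used no expression value. By role, 7 encode core subunits, 29 encode accessory subunits, 7 encode assembly factors (Ndufaf genes), and Ndufa4 and Ndufa4l2 make up the remainder. The Ndufa4 product is now counted with complex IV, so that pair is given as a role of its own and is included only in counts over all 45 genes or all tested genes of the group. The transcriptomes came from fully-grown oocytes (FGOs) at the germinal vesicle (GV) stage, that is, immature oocytes held in prophase of the first meiosis, and were measured by RNA-Seq in 3 WT and 3 Lsm14b-KO libraries. Lsm14b-KO females were homozygous for Lsm14b tm1a(KOMP)Mbp, an insertion of a reporter cassette that is not limited to oocytes, and both genotypes were kept on the C57BL/6J background. Females of both genotypes received 5 IU of the gonadotropin PMSG, which stimulates follicles, and oocytes were taken 46 h later. Each library pooled 20 oocytes. The labels do not say whether libraries came from separate mice, so the p-values measure the spread between these libraries, which may be technical.

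Complex I is the large enzyme of the inner mitochondrial membrane that oxidises NADH, passes the electrons to ubiquinone and pumps protons. Its core subunits hold the flavin and the iron-sulfur clusters and form the proton channels. Some of them are encoded in the mitochondrial genome and the rest in the nucleus. Accessory subunits surround the core, and assembly factors help to build the enzyme from an NADH-oxidising N module, a ubiquinone-reducing Q module and the proximal and distal parts of a membrane arm, without staying in it. In oocytes, mitochondria come only from the mother and rely largely on pyruvate supplied by the surrounding cumulus cells. The mitochondrially encoded subunits were not analysed here, so all core subunits described are those encoded in the nucleus.

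Expression was given as FPKM, which stands for fragment numbers divided by transcript length and by the mapped fragments of the library. Comparisons of level between genes of different length rest on the division by length. Whether the submitters' programs also scaled the libraries to each other was not examined. Lsm14b itself had 2.77, 3.98 and 1.72 FPKM in WT replicates 1, 2 and 3, and Lsm14b-KO replicates 1, 2 and 3 listed 0, 0 and 0.102 FPKM. All 9 oocyte markers were detected in every library, 4 of 10 cumulus and granulosa cell markers (Amh, Foxl2, Inhba and Cyp11a1) were at 0 in all 6, and the 6 red blood cell markers in the table were at 0 in all 6. Of the 9 oocyte markers, 2 had a log2 fold change below 0 and 7 above, and 0 were called in either direction. The summed FPKM of the cumulus and granulosa cell markers was 9.83 to 13.6 in WT and 6.23 to 10.2 in Lsm14b-KO, and the largest part of it was Cyp19a1, the only 1 of the 3 tested markers of this list called lower (log2 fold change -0.98, limma adjusted p = 0.0426). The other 2 tested, Fshr and Inha, had log2 fold changes of 0.73 and 0.38 (limma adjusted p = 0.0923 and 0.301), and Fshr was higher in each Lsm14b-KO library than in any WT library. Kitl, Gja1 and Nr5a2, detected but not tested, had means of 0.223, 0.0519 and 0.378 FPKM in WT. In Lsm14b-KO their means were higher, at 0.503, 0.179 and 0.555 FPKM, and Kitl was higher in each library. The part of such RNA in the results was not tested. The total FPKM was 1141324 to 1244182 per library in WT but 1029728, 564671 and 676656 in Lsm14b-KO replicates 1, 2 and 3. The depth of sequencing, read from the ratio of the lowest values, was 1 to 1.141 times that of WT replicate 1 in WT and 1.329 to 2.174 times in Lsm14b-KO. Lsm14b-KO replicate 1 correlated more closely with the WT libraries (r = 0.952 to 0.954 across genes) than with Lsm14b-KO replicate 2 (r = 0.917), and most closely with Lsm14b-KO replicate 3 (r = 0.960). In bulk oocyte samples, a lower FPKM cannot tell less of an mRNA per oocyte from more of other mRNAs.

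In WT FGOs the mRNAs of complex I subunits spanned mean levels from 0.0926 FPKM (Ndufs1) to 1030 FPKM (Ndufa2), and the core subunits were at the low end. None of the 7 core subunits had a mean above 10.7 FPKM, and their median was 4.59 FPKM. Of the 29 accessory subunits, 11 had a WT mean above 100 FPKM, 12 lay between 10 and 100 FPKM, and their median was 66.8 FPKM. The lowest accessory subunit was Ndufa10 at 0.252 ± 0.0181 FPKM (SD, n = 3), and the highest was Ndufa2, an N module subunit, at 1030 ± 128 FPKM (SD, n = 3). Among assembly factors the range ran from Ndufaf1, listed at 0 in all 3 WT libraries, to Ndufaf4 at 762 ± 64.8 FPKM (SD, n = 3). Ndufa2, Ndufb3 and Ndufaf4 alone held 44.4% to 47.6% of the FPKM of all 45 genes in the WT libraries, and 34.9% to 42.5% in the Lsm14b-KO libraries. The genes of this group tended to have short transcripts, with a median of 934 nt against 2250 nt over all tested genes. Core subunits had a median of 1623 nt and accessory subunits of 732 nt, and the part of length in their difference in level was not tested. Across the 45 genes, length and WT level had a Spearman correlation of -0.305, given as a description, since all levels come from the same libraries.

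**Figure D1:**
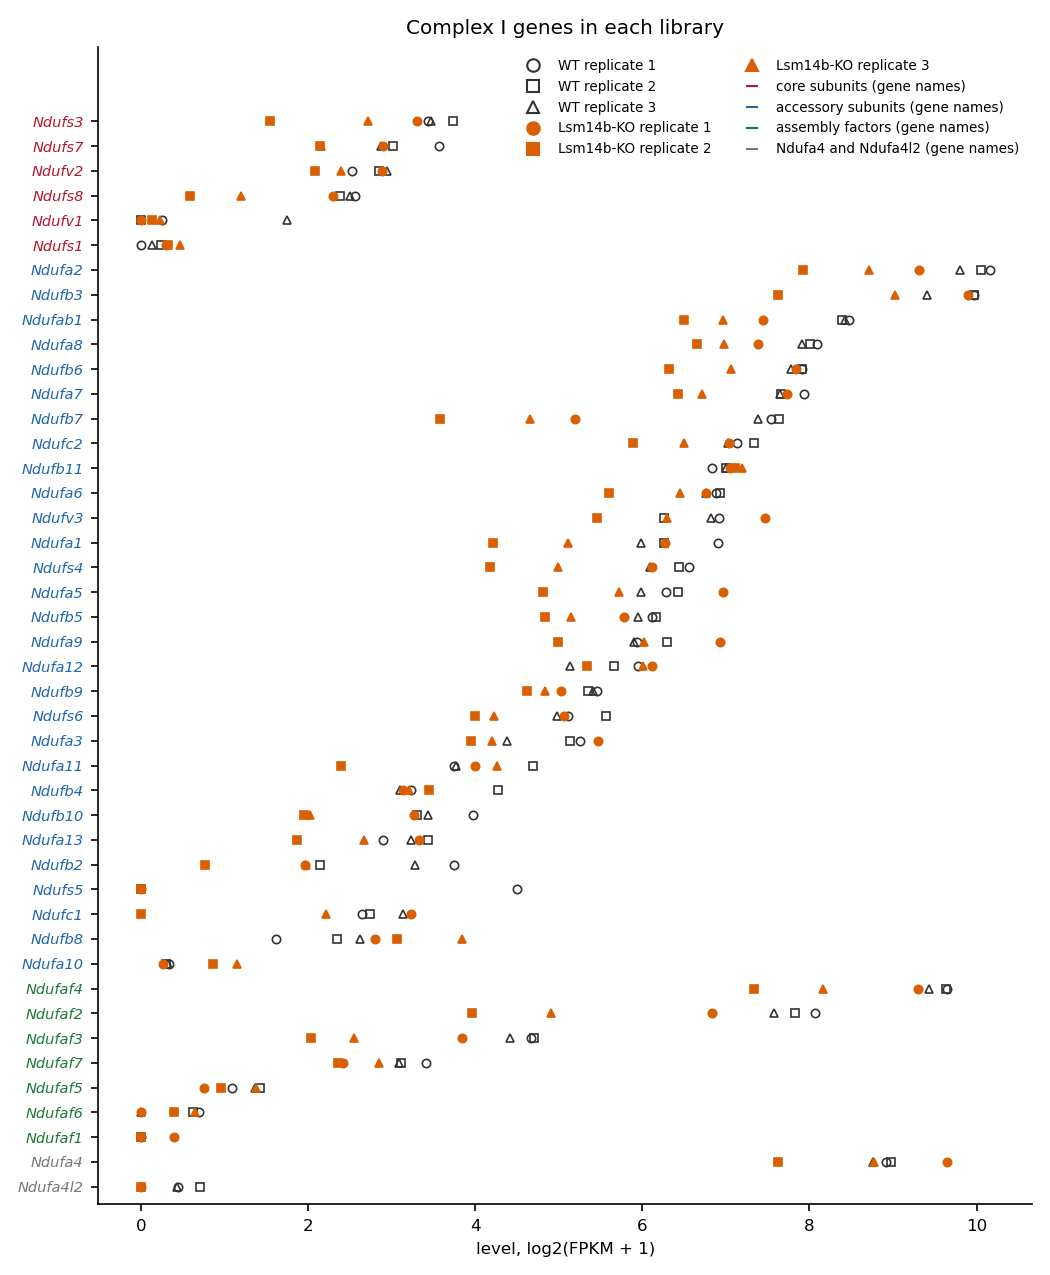
The level of complex I genes in each of the 6 libraries, as log2(FPKM + 1), with 1 row per gene, open symbols for WT, filled orange symbols for Lsm14b-KO, and gene names coloured by role and ordered by WT mean within a role. The core subunits sit at the left, none with a WT mean above 10.7 FPKM, and the filled square of Lsm14b-KO replicate 2 was the lowest of the 6 in 32 of the 40 tested genes (80.0%), against 31.3% of all tested genes.

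Lsm14b-KO was compared with WT by limma on log2(FPKM + 1) over the 6398 genes that reached 1 FPKM in at least 1 library, and p-values were adjusted over all of them. Of the 45 genes, 40 passed this filter. The others, among them Ndufs1, Ndufaf1, Ndufaf6 and Ndufa4l2, stayed below 1 FPKM in every library and were not tested. Among the 40 tested genes 5 were lower in Lsm14b-KO at an adjusted p under 0.05 (12.5%), namely Ndufb7, Ndufaf2, Ndufaf3, Ndufab1 and Ndufa2, and 0 were higher. At an unadjusted p under 0.05 limma gave 15 lower and 1 higher, beside 23.7% lower and 15.6% higher of all tested genes. Over all tested genes 15.2% were called lower and 6.38% higher, so the share of complex I genes called lower was no larger than that of genes at large. The direction was more uniform than the calls: the log2 fold change was below 0 in 36 of 40 complex I genes (90.0%) and in 53.2% of all tested genes. It was also below 0 in 87.7% of the tested mitochondrial ribosomal protein genes and in 69.0% of those of complexes II to V. Ndufs5, Ndufv1 and Ndufa10 reached 1 FPKM in 1 genotype only, and without genes of that kind the log2 fold change was below 0 in 34 of 37 complex I genes (91.9%) and in 56.1% of the remaining tested genes. The groups were separate, with Lsm14b-KO the lower, for 15 of the 40 (37.5%), against 26.0% of all tested genes, and separate with Lsm14b-KO the higher for Ndufb8 and Ndufb11, against 19.1% of all tested genes. The median log2 fold change of the 40 was -0.77, and that of all tested genes was -0.0751. Without Ndufa4 it was -0.79 over 39 genes. On simulated data with the same number of libraries the test called 8% of 2-fold and 49% of 4-fold changes. The simulation lowered 100 genes by each amount, all above a minimum mean level, with independent noise for each gene. In the real data 975 genes were called lower and 408 higher, and several complex I genes lay below that level. The simulated shares therefore do not carry over to the complex I genes.

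**Figure D2:**
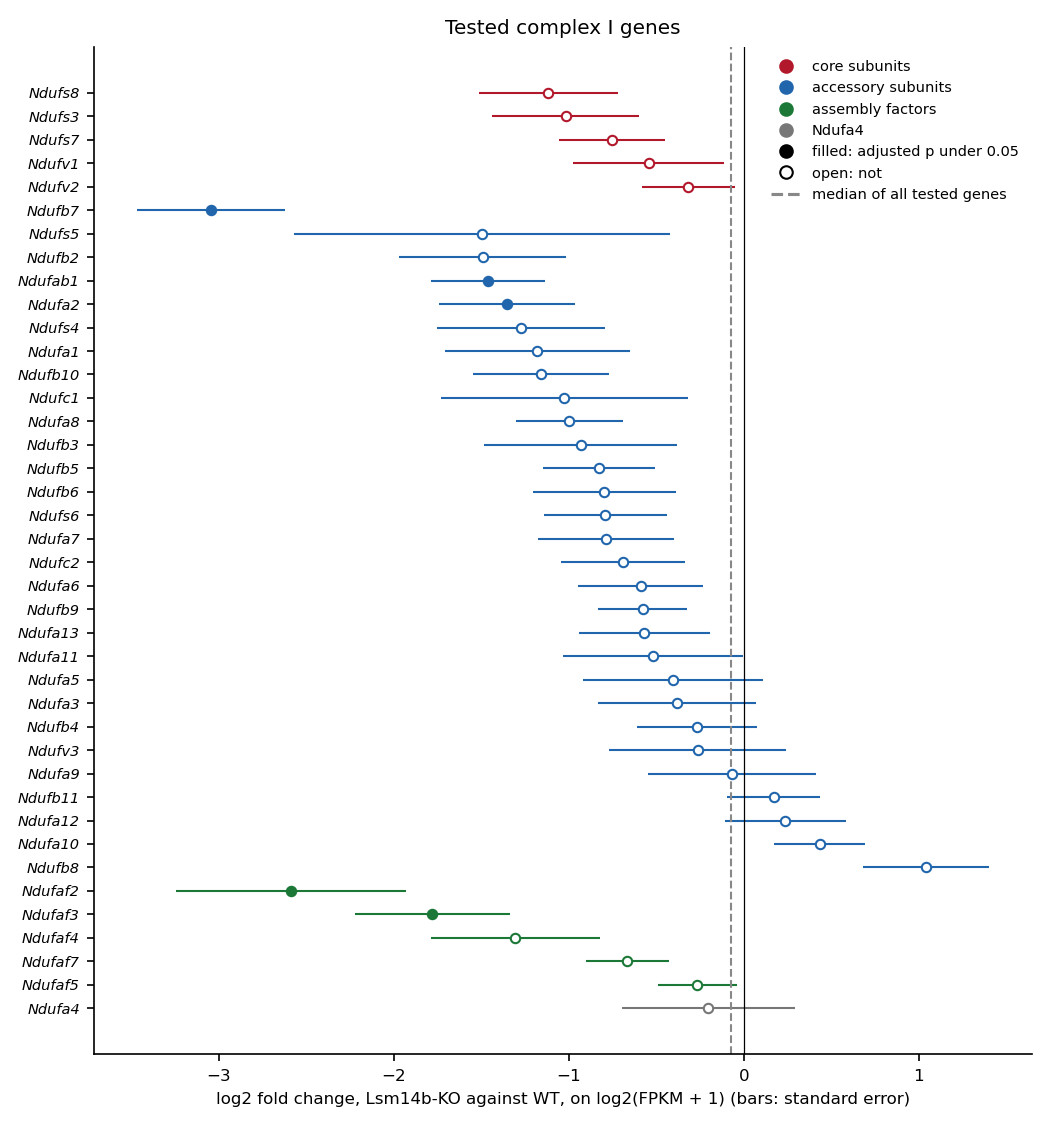
The log2 fold change of each of the 40 tested complex I genes, Lsm14b-KO against WT on log2(FPKM + 1), with bars for the standard error from limma, colour for role, and filled points for an adjusted p under 0.05. Most points lie left of the dashed line, the median of all tested genes at -0.0751, and the filled points are Ndufb7, Ndufab1, Ndufa2, Ndufaf2 and Ndufaf3.

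None of the 5 core subunits tested passed the threshold in limma, beside 15.2% of all tested genes called lower. At an unadjusted p under 0.05 limma gave 3 lower, beside 23.7%. All 5 had a log2 fold change below 0 (median -0.75), beside 53.2% of all tested genes. Ndufv1, 1 of the 5, passed the filter through WT replicate 3 alone, which favours a sign below 0. At a mean of at least 1 FPKM, which leaves Ndufv1 out, the core median was -0.89, beside -0.15 over all tested genes. Without the filter, over all 7 core subunits, it was -0.54, beside 0.02. Ndufs3, a Q module subunit without a redox centre, was at 9.79, 12.4 and 10.1 FPKM in WT and at 8.90, 1.93 and 5.60 FPKM in Lsm14b-KO. Its groups did not overlap, but Lsm14b-KO replicate 1 lay close to WT, and limma gave a log2 fold change of -1.02 ± 0.42 (SE) with an adjusted p of 0.114. This gene has a near-identical copy, Gm12251, with which it may share reads. Ndufs8, which carries iron-sulfur clusters in the Q module, was at 4.89, 4.22 and 4.66 FPKM in WT and at 3.93, 0.503 and 1.29 FPKM in Lsm14b-KO (log2 fold change -1.12 ± 0.40, limma adjusted p = 0.0776). The values of Lsm14b-KO replicates 2 and 3 were well below those of the other 4 libraries. Ndufs7, the subunit with the cluster nearest to ubiquinone, was at 10.9, 7.09 and 6.36 FPKM in WT and at 6.44, 3.43 and 3.46 FPKM in Lsm14b-KO (log2 fold change -0.75 ± 0.30, limma adjusted p = 0.105). The locus deposited for it is far wider than the annotated gene, so its value may include other transcripts.

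The core subunits of the N module were low or little different. Ndufv2, an iron-sulfur subunit, was at 4.75, 6.21 and 6.68 FPKM in WT and at 6.36, 3.25 and 4.25 FPKM in Lsm14b-KO, and the groups overlapped (log2 fold change -0.32 ± 0.27, limma adjusted p = 0.383, with the sign turned when libraries were scaled to equal FPKM sums or corrected for length and GC content). Ndufv1, which binds NADH and the flavin, was at 0.188, 0 and 2.35 FPKM in WT and at 0, 0.0963 and 0.172 FPKM in Lsm14b-KO, so it reached the filter through WT replicate 3 alone. Ndufs1, the large iron-sulfur subunit of the N module, was between 0 and 0.183 FPKM in WT and between 0.236 and 0.384 FPKM in Lsm14b-KO. At these levels no difference in Ndufs1 was tested.

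Ndufb7 had the lowest log2 fold change of the 40 genes. It encodes a small accessory subunit of the distal membrane arm on the side of the intermembrane space, and lies on chromosome 8 (chr8:83566671-83571626, + strand, GRCm38, GENCODE vM21). It was at 185, 198 and 166 FPKM in WT (183 ± 16.3, SD, n = 3) and at 35.6, 11.0 and 24.1 FPKM in Lsm14b-KO (23.5 ± 12.3, SD, n = 3). Each Lsm14b-KO library, replicate 1 included, was far below each WT library. The log2 fold change was -3.05 ± 0.42 (SE, limma adjusted p = 0.00398), and Ndufb7 was called lower in 14 of 14 processing alternatives, with adjusted p-values of 0.000103 to 0.0287 and log2 fold changes of -3.40 to -2.38. No near-identical copy was found for it and no other annotated gene overlaps it.

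Ndufab1, the mitochondrial acyl carrier protein, also serves fatty acid and iron-sulfur cluster synthesis. It was at 356, 335 and 343 FPKM in WT and at 173, 89.5 and 124 FPKM in Lsm14b-KO. The WT values were tight, at 345 ± 10.4 FPKM (SD, n = 3), and every Lsm14b-KO value was lower (log2 fold change -1.46 ± 0.33, limma adjusted p = 0.0202). Because the copies Gm4459 and Ndufab1-ps are near-identical, the assignment of its reads is uncertain. Ndufa2, a thioredoxin-like subunit of the N module, was at 1140, 1061 and 890 FPKM in WT and at 632, 242 and 418 FPKM in Lsm14b-KO (log2 fold change -1.35 ± 0.39, limma adjusted p = 0.0443). Its groups did not overlap, but it was called in only 4 of 14 alternatives, and its adjusted p ranged from 0.00139 to 0.154. Scaling the libraries to equal FPKM sums gave a log2 fold change of -0.66 for Ndufa2.

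Ndufb2 and Ndufs4 were also among the 5 accessory subunits with the lowest fold changes at a mean of at least 5 FPKM, but did not pass the threshold. Ndufb2, of the distal arm, was at 12.4, 3.42 and 8.74 FPKM in WT and at 2.89, 0.702 and 2.92 FPKM in Lsm14b-KO (log2 fold change -1.49 ± 0.48, limma adjusted p = 0.058). Its WT replicate 2 lay near the Lsm14b-KO values, and without that library Ndufb2 was called lower with a log2 fold change of -1.95. Ndufs4, an N module subunit whose loss gives a Leigh-like disease in mice, was at 93.6, 86.0 and 67.1 FPKM in WT and at 68.3, 17.1 and 30.8 FPKM in Lsm14b-KO, with overlapping groups (log2 fold change -1.27 ± 0.48, limma adjusted p = 0.0906). Ndufs5 could not be judged, since it was listed at 21.6 FPKM in WT replicate 1 and at 0 to 0.00421 FPKM in the other 5 libraries. It has a near-identical copy, BC002163.

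A few accessory subunits did not follow the majority. The log2 fold change was above 0 in 4 of the 29, Ndufb8, Ndufb11, Ndufa12 and Ndufa10. Ndufa10 was at 0.267, 0.232 and 0.257 FPKM in WT and at 0.199, 0.822 and 1.21 FPKM in Lsm14b-KO. It passed the filter through Lsm14b-KO replicate 3 alone, which favours a sign above 0 (log2 fold change 0.43 ± 0.26, limma adjusted p = 0.238). Ndufb8, a distal arm subunit, was at 2.06, 4.08 and 5.14 FPKM in WT and at 5.97, 7.35 and 13.3 FPKM in Lsm14b-KO, without overlap. Its log2 fold change was 1.04 ± 0.36 (SE, limma adjusted p = 0.0729), and it was called higher in 3 of 14 alternatives. Another annotated gene overlaps Ndufb8 on the same strand. Ndufb11, also of the distal arm and X-linked, was at 113, 128 and 127 FPKM in WT and at 132, 137 and 145 FPKM in Lsm14b-KO. The groups were apart by little, with a log2 fold change of 0.17 ± 0.27 (SE, limma adjusted p = 0.639), and the copy Gm6444 may share its reads. Ndufa12, which sits where the N and Q modules meet, was at 60.7, 49.6 and 34.2 FPKM in WT and at 68.1, 39.5 and 63.6 FPKM in Lsm14b-KO, with replicate 2 inside the WT range and replicates 1 and 3 above it (log2 fold change 0.24 ± 0.35, limma adjusted p = 0.616). In Ndufa9 and Ndufv3, Lsm14b-KO replicate 1 had the highest and replicate 2 the lowest of the 6 values. Ndufa9, a subunit that binds NADPH, was at 60.3, 77.8 and 59.0 FPKM in WT and at 121, 30.8 and 64.1 FPKM in Lsm14b-KO (log2 fold change -0.07, limma adjusted p = 0.923). Ndufv3, of the N module, was at 120, 75.8 and 112 FPKM in WT and at 176, 42.8 and 77.6 FPKM in Lsm14b-KO (log2 fold change -0.26, limma adjusted p = 0.707).

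Split by place in the enzyme, the medians of the log2 fold changes lay close together. They were -0.67 over 8 tested genes of the N module, -0.89 over 4 of the Q module, -0.85 over 8 of the proximal arm and -0.81 over 10 of the distal arm. The 4 subunits not assigned to any of these, Ndufa6, Ndufa9, Ndufa11 and Ndufab1, had a median of -0.55, with Ndufab1 called lower. Limma called Ndufb7 lower among the 10 of the distal arm and Ndufa2 among the 8 of the N module, and called 0 in the Q module and 0 in the proximal arm, where 3 and 1 were lower at an unadjusted p under 0.05. Of all tested genes 15.2% were called lower and 23.7% were lower at that unadjusted threshold. The distal arm held both ends of the range, Ndufb7 at -3.05 and Ndufb8 at 1.04. Over the 29 accessory subunits the median was -0.79, with 3 called lower (10.3%) and 25 below 0 (86.2%). Of all tested genes 15.2% were called lower and 53.2% were below 0. After correction for transcript length and GC content the accessory median turned to 0.03. The difference between accessory subunits and core subunits was not tested.

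Of 5 tested assembly factors, all 5 had a log2 fold change below 0, beside 53.2% of all tested genes. Limma called 2 of the 5 lower, beside 15.2% of all tested genes. The median of the 5 was -1.31. This was the lowest median of the 3 roles as reported, but without the filter on low values it was -0.67 over 7 genes, against -0.79 for accessory subunits, and after quantile normalization it was -0.59, against -0.58 for core subunits. Ndufaf2, a relative of Ndufa12 that helps to attach the N module, was at 267, 226 and 189 FPKM in WT (228 ± 39.0, SD, n = 3) and at 113, 14.6 and 28.9 FPKM in Lsm14b-KO (52.2 ± 53.2, SD, n = 3). All Lsm14b-KO values were lower, replicates 2 and 3 far more than replicate 1. The log2 fold change was -2.59 ± 0.66 (SE, limma adjusted p = 0.0300), and it was called in 9 of 14 alternatives. In the genome Ndufaf2 overlaps 2 genes on the other strand, and the sources used here do not say whether strand was counted. Such an overlap was found for 18 of the 45 genes, among them Ndufa2, Ndufab1, Ndufaf3, Ndufb2 and Ndufv2. Ndufb2 also overlaps a gene on its own strand. A near-identical copy was found for 8 of the 45, among them Ndufa12 (Gm15920) and Ndufb3 (Gm45930).

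Ndufaf3 and Ndufaf4 act as a pair in the assembly of the Q module. Ndufaf3 was at 24.4, 25.0 and 20.3 FPKM in WT and at 13.4, 3.09 and 4.88 FPKM in Lsm14b-KO (log2 fold change -1.78 ± 0.44, limma adjusted p = 0.0280, called in 7 of 14 alternatives). Ndufaf4 was at 802, 796 and 687 FPKM in WT and at 629, 161 and 285 FPKM in Lsm14b-KO (log2 fold change -1.31 ± 0.48, limma adjusted p = 0.0862). In both genes no Lsm14b-KO value reached the WT range, and replicate 1 was the nearest to it. Ndufaf7, a methyltransferase, was at 9.64, 7.67 and 7.54 FPKM in WT and at 4.36, 4.12 and 6.18 FPKM in Lsm14b-KO (log2 fold change -0.67 ± 0.24, limma adjusted p = 0.0768). Here too no Lsm14b-KO value reached the WT range, but replicate 3 was the nearest to it, and replicates 1 and 2 were close to each other. Ndufaf5, which hydroxylates Ndufs7, was at 1.12, 1.70 and 1.58 FPKM in WT and at 0.690, 0.942 and 1.59 FPKM in Lsm14b-KO (log2 fold change -0.27 ± 0.23, limma adjusted p = 0.396), and its sign turned under equal FPKM sums and under the length and GC correction.

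Of 11 complex I assembly factors with other names, 8 were in the table and 4 were tested. Of these 4, 1 was called lower and 0 higher, beside 15.2% and 6.38% of all tested genes. The log2 fold change was below 0 in 3 and above 0 in 1, beside 53.2% of all tested genes below 0. The called gene was Tmem70, which also serves ATP synthase assembly. It was at 54.5, 51.3 and 43.1 FPKM in WT and at 30.7, 16.1 and 19.9 FPKM in Lsm14b-KO, without overlap (log2 fold change -1.17 ± 0.31, limma adjusted p = 0.0353). Tmem126b, a member of the membrane arm assembly complex, was at 28.2, 30.6 and 22.4 FPKM in WT and at 16.7, 1.75 and 6.72 FPKM in Lsm14b-KO (log2 fold change -1.95 ± 0.60, limma adjusted p = 0.0522). Nubpl and Timmdc1, also tested, had overlapping groups. Their log2 fold changes were 0.30 and -0.35 (limma adjusted p = 0.685 and 0.281).

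Promoter sequences, 250 bases before to 50 after the start in RefSeq (GRCm38.p6), were matched by symbol for 39 of the 45 genes, and short motifs of factors known for nuclear respiratory genes were searched on both strands. These motifs were chosen after the expression values were known. The YY1 motif GCCATNTT (N any base) was found in 13 of 39 (33.3%), against 6.96% of 27025 promoters. The NRF1 motif GCGCATGC was found in 5 of 39 (12.8%), against 3.05%, and the GABPA motif CCGGAAGT in 1 of 39 (2.56%), against 4.31%. The 3 promoters shown are those of the gene with the lowest fold change (Ndufb7, chr8:83566508-83566807, + strand), of a called assembly factor (Ndufaf3, chr9:108567387-108567686, - strand) and of the gene with the highest fold change (Ndufb8, chr19:44555393-44555692, - strand), so that members at both ends of the range can be read side by side. Capitals mark a YY1 match, whose leftmost base is at position -77 from the start in Ndufaf3 and at position 39 after it in Ndufb8, there on the other strand. Ndufb7 held none of the 3 motifs in this window.
Ndufb7: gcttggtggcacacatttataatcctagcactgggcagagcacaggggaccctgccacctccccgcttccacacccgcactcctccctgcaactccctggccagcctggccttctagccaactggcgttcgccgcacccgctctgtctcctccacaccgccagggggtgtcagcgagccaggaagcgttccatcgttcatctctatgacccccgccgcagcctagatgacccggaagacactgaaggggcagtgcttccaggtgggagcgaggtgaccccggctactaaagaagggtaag
Ndufaf3: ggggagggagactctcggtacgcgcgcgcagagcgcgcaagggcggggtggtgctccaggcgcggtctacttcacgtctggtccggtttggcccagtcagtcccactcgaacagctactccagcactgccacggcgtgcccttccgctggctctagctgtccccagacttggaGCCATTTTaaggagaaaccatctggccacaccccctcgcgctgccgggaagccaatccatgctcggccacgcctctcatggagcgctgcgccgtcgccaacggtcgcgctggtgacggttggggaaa
Ndufb8: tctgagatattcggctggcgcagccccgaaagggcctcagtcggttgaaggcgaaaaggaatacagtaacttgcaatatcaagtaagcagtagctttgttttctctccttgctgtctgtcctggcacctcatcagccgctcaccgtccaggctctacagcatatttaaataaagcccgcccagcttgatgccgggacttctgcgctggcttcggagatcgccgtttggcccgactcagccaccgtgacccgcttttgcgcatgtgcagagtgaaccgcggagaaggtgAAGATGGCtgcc
A match describes letters only, and the YY1 match occurred on both sides of the range, in a gene called lower and in the gene with the highest fold change.

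The Lsm14b-KO libraries did not share the lower levels equally. Among the 40 tested genes, 33 lay below all WT values in Lsm14b-KO replicate 2 and 28 in replicate 3, where 44.5% and 41.3% of all tested genes did. In replicate 1, 17 (42.5%) lay below all WT values and 9 (22.5%) above, against 37.3% and 33.1% of all tested genes. The order replicate 2, then 3, then 1 from low to high held for 30 of 40 genes (75.0%), against 33.4% of all tested genes. The median difference from the WT mean on the log2 scale was -0.17, -1.32 and -0.74 in Lsm14b-KO replicates 1, 2 and 3, while over all tested genes it was -0.04, -0.14 and -0.07. Assembly factors were lower than subunits in each of these libraries, with medians of -0.75, -2.23 and -1.41 against -0.10, -1.33 and -0.73 for accessory subunits. Core subunits were at -0.24, -1.01 and -0.82.

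**Figure D3:**
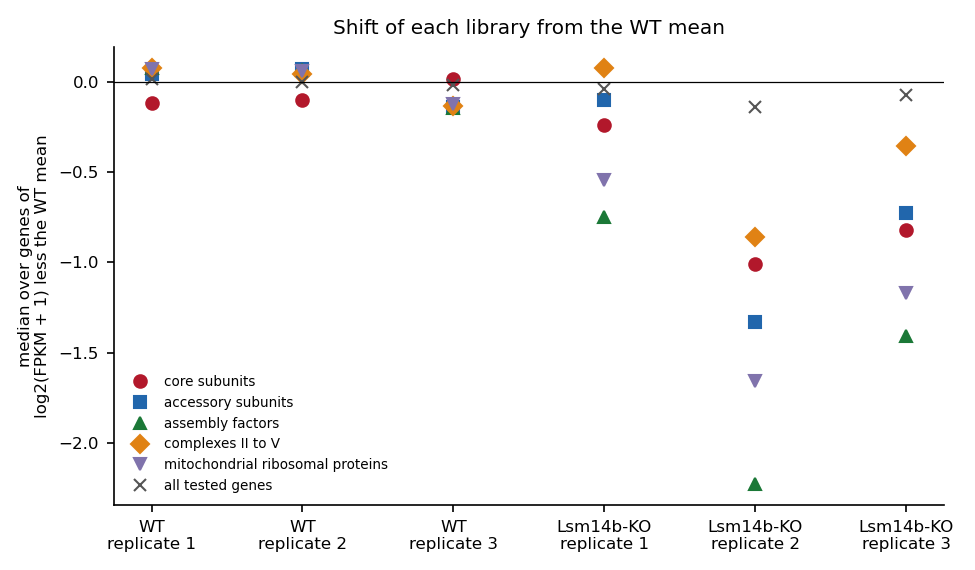
The median over genes of log2(FPKM + 1) less the WT mean in each of the 6 libraries, for core subunits, accessory subunits, assembly factors, complexes II to V, mitochondrial ribosomal proteins and all tested genes. Symbols of the complex I roles fall away from the crosses of all tested genes in Lsm14b-KO replicates 2 and 3, to -2.23 for assembly factors in replicate 2, and stay nearer in replicate 1.

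Leaving out single libraries changed the calls accordingly. Without Lsm14b-KO replicate 1, 26 of the 40 genes were called lower and 2 higher (Ndufb8 and Ndufa10), beside 28.7% of all tested genes lower and 18.3% higher, and the median was -1.04. Without Lsm14b-KO replicate 2, 3 were called lower, beside 11.4% of all tested genes, and the median was -0.50. Without Lsm14b-KO replicate 3 or WT replicate 1 or 3, 1 was called lower, beside 4.47%, 5.41% and 6.99% of all tested genes, and without WT replicate 2, 2 were, beside 5.73%. Ndufb7 was among the genes called each time. These replicates also differed in total FPKM and in depth, and the part of those differences in the result was not tested. As a summed quantity, the 45 genes held 6219, 6014 and 5083 FPKM in WT and 5212, 1721 and 3024 FPKM in Lsm14b-KO. As a share of the total FPKM of each library this was 0.500%, 0.513% and 0.445% in WT and 0.506%, 0.305% and 0.447% in Lsm14b-KO, so that on this scale only replicate 2 lay below the WT range. Without Ndufa4 and Ndufa4l2 the share was 0.461%, 0.470% and 0.407% in WT and 0.428%, 0.270% and 0.382% in Lsm14b-KO, where replicates 2 and 3 lay below the WT range.

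Transcript length moved with the fold changes of all genes. The median log2 fold change of all tested genes was -0.70 for transcripts below 750 nt, -0.49 from 750 to 1500 nt, -0.05 from 1500 to 3000 nt and 0.27 above. Complex I genes had medians of -0.80 (17 genes), -0.66 (14 genes) and -0.32 (7 genes) in the first 3 classes. In each of these classes the complex I median was thus below that of the class, and the difference was not tested. The 2 longest were Ndufab1 and Ndufaf4, whose median of -1.38 stood against 0.27 for their class. Their lengths, 3479 and 3632 nt, are those of the longest annotated coding transcript of each gene. The annotation behind the deposited FPKM is not known, so the class of these 2 genes rests on that choice. Across genes, length and log2 fold change had a Spearman correlation of 0.364 over 6318 tested genes and of 0.284 over the 40, given as descriptions of the same 6 libraries. The part of length in the result was not tested beyond a correction for length and GC content. After it the median of the 40 was -0.11, beside 0.09 over all tested genes, and 22 of 40 were below 0. Then 4 of the 40 were called lower, namely Ndufb7, Ndufab1, Ndufaf2 and Ndufaf3, beside 12.7% of all tested genes.

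**Figure D4:**
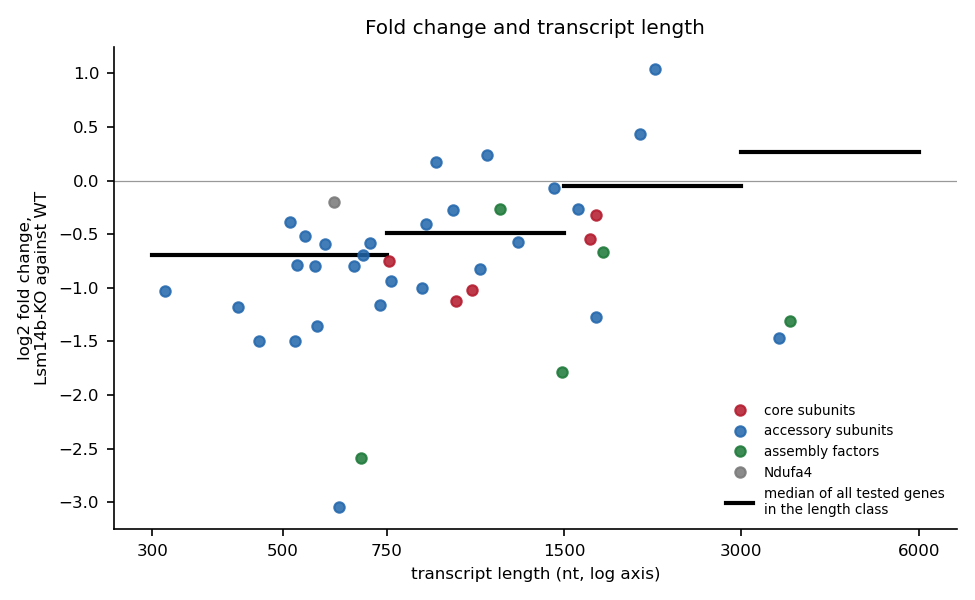
The log2 fold change of each tested complex I gene against its transcript length on a log axis, coloured by role, with black bars for the median of all tested genes in each length class, from -0.70 below 750 nt to 0.27 from 3000 nt. Ndufb7 at -3.05, Ndufaf2 at -2.59, Ndufaf3 at -1.78, Ndufab1 at -1.46 and Ndufaf4 at -1.31 lie well below the bar of their class. Length is that of the longest annotated coding transcript.

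**Figure D5:**
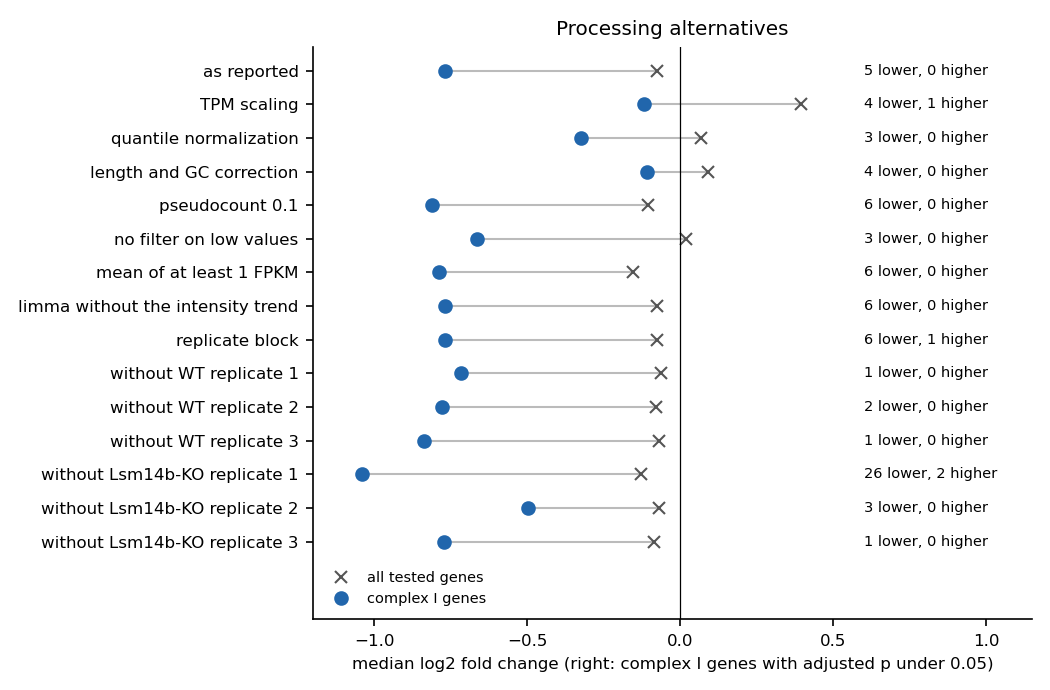
Medians of the log2 fold changes over tested complex I genes (circles) and of all tested genes (crosses) as reported and under each of 14 alternatives, with the number of complex I genes called lower and higher at the right. The circles stay left of the crosses in each alternative, from -1.04 without Lsm14b-KO replicate 1 to -0.11 after the length and GC correction, and the number called lower runs from 1 to 26. The share of all tested genes called lower runs from 3.78% to 28.7%.

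Among other mitochondrial genes, the 48 genes of complexes II to V had 42 tested, with a median log2 fold change of -0.49. Of these 42, 2 were called lower (4.76%) and 1 higher, beside 15.2% and 6.38% of all tested genes. Of 77 mitochondrial ribosomal protein genes 73 were tested, and 34 (46.6%) were called lower and 1 higher, with a median of -1.16. The log2 fold change was below 0 in 69.0% of the tested genes of complexes II to V, 87.7% of the mitochondrial ribosomal protein genes and 90.0% of the complex I genes. The complex I median of -0.77 lay between those of the other lists, and the differences between lists were not tested. Ndufa4, counted with complex IV, was at 482, 503 and 434 FPKM in WT and at 803, 196 and 438 FPKM in Lsm14b-KO, with replicate 1 above and replicate 2 below the WT range (log2 fold change -0.20 ± 0.49, limma adjusted p = 0.771). Its paralog Ndufa4l2 was at 0.365, 0.631 and 0.348 FPKM in WT and listed at 0 in all 3 Lsm14b-KO libraries, and was below the filter. When low genes were not filtered out, Ndufa4l2 was called lower by limma.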

How the data were processed

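Expression of 24255 genes was measured in 6 RNA-Seq libraries, 3 of WT and 3 of Lsm14b-KO FGOs at the GV stage, grouped by sample title. RNA was amplified by Smart-seq2. The submitters' processing notes name TopHat2 (version 2.0.13), Cufflinks (version 2.2.1), Cuffnorm, Cuffdiff and the mm10 genome; the annotation is not given in the sources used here. The authors deposited FPKM per gene and library, without read counts, so depth is known only as a ratio between libraries. The fold change, p-value and q-value columns of the authors' own comparison were not used.

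FPKM values were transformed to log2(FPKM + 1), and every gene that reached 1 FPKM in any library was tested two-sided with limma 3.58.1 in R 4.3.3 (eBayes with an intensity trend, genotype as the only term), with Benjamini-Hochberg adjustment over 6398 genes and a threshold of 0.05. The fit was tested on simulated data. The genes, roles and comparison lists were chosen with earlier results of these data known. Named with all values were the core subunits (with 1 exception), the tested assembly factors, and the 5 lowest and 5 highest accessory subunits at a mean of at least 5 FPKM; other genes named were chosen after their values were seen. The values of 1 core subunit gene are not reported here. Transcript lengths, coordinates, overlaps and copies (at least 95% identity over 200 nt) came from GENCODE vM21 (GRCm38), and promoters from RefSeq. The length of a gene was that of its longest coding transcript, taken among those linked to RefSeq where there were any. Alternatives were scaling to equal FPKM sums, quantile normalization, a loess correction for length and GC content, a pseudocount of 0.1, other filters, limma without the trend, a replicate block, and leaving out each library.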

Additional observations from a re-analysis of the deposited data

How the results depend on the processing

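The number of complex I genes called lower was 5 of 40 as reported and 3 of 40 after quantile normalization, beside 15.2% and 11.5% of all tested genes. Without the filter on low values it was 3 of 45 (Ndufb7, Ndufab1 and the complex IV paralog Ndufa4l2), beside 3.78%. When single libraries were left out it was 1 to 26, beside 4.47% to 28.7%. The number called higher was 0 as reported, beside 6.38% of all tested genes. With libraries scaled to equal FPKM sums (TPM scaling) it was 1, beside 13%. It was 2 without Lsm14b-KO replicate 1, beside 18.3%, and 0 without any other single library, beside at most 3.36%. The highest numbers in both directions thus came without Lsm14b-KO replicate 1. Leaving out Ndufa4 and Ndufa4l2, or the genes that reach 1 FPKM in 1 genotype only, both chosen after seeing the data, gave a median of -0.79 and the same 5 genes called. The sample titles do not say whether equal replicate numbers pair the libraries. Deviations from the genotype means correlated at 0.19, -0.13 and 0.02 for equal numbers and at -0.275 to 0.306 for unequal ones. With so few libraries per genotype these correlations cannot decide it. With a replicate block 6 were called lower and 1 higher, beside 13.9% and 5.52% of all tested genes, the higher gene being Ndufb8.

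The median log2 fold change of all complex I genes was -0.12 under TPM scaling and -0.11 after the length and GC correction. That of accessory subunits was -0.10 under TPM scaling, -0.18 after quantile normalization and 0.0273, a reversed sign, after the length and GC correction. That of assembly factors was -0.62, -0.59 and, without the filter, -0.67. Over all tested genes the median moved from -0.08 to 0.40 under TPM scaling, 0.07 after quantile normalization and 0.09 after the length and GC correction, so part of each shift is common to all genes by construction. The share of higher genes among all calls was 29.5% as reported and 63.2%, 42.4% and 44.3% in these 3 settings. Relative to all tested genes, the complex I median was -0.69 as reported and -0.51, -0.39 and -0.20 in them. Of the 40 complex I genes, 24 were below 0 under TPM scaling and 22 after the length and GC correction, against 36 as reported.

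Signs reversed for Ndufv2 (0.25 under TPM scaling, 0.12 after the length and GC correction), Ndufaf5 (0.14 and 0.35), Ndufv3 (0.42 under TPM scaling, 0.33 after quantile normalization, -0.79 to 0.21 when libraries were left out) and Ndufa9 (0.61, 0.45 and, after the length and GC correction, 0.33, with -0.54 to 0.43 when libraries were left out). The cause was not tested. Of the calls, Ndufb7 was kept in all 14 alternatives. When single libraries were left out, Ndufaf3 and Ndufa2 kept their call only without Lsm14b-KO replicate 1, and Ndufaf2 and Ndufab1 only without Lsm14b-KO replicate 1 or 2. Ndufa2 was also lost in each of the 3 scalings and corrections, with log2 fold changes of -0.66, -0.61 and -0.49, without the filter, and under the replicate block. Ndufaf3 was also lost after quantile normalization and without the filter, and Ndufaf2 without the filter. Depth is unknown in reads, so no counting error could be given for genes near 1 FPKM.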
